A study of Danio rerio with 3 samples.

Results

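The genes described here are heat shock proteins and molecular chaperones of the zebrafish embryo. They were taken by symbol from the annotation of the array platform, as genes of the HSP70, HSP90, HSP110, HSP60, HSP10 and small heat shock families, J-domain proteins (dnaja, dnajb and dnajc), subunits of the TRiC chaperonin, BAG proteins, stip1, serpinh1 paralogs, protein disulfide isomerases (pdia), calreticulins and calnexin. The rule found 110 of 15554 genes, measured by 179 probes, and 51 of them had more than 1 probe. Their Entrez identifiers were all found in a gene table of GRCz12tu, a zebrafish assembly, each with an unchanged symbol. That table holds 122 genes whose symbols meet the rule, so 12 of them, among them the TRiC subunit gene cct2 and the inducible genes hsp70.1 and hsp70.2, were not analysed here. Of the 110, tcp11l1, tcp11l2 and hspbap1 match by spelling and are not known as chaperones. The symbol hspb11 is also listed as a synonym of hspb9l, so no role is given to hspb11.

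Whole embryos of the wild-type AB strain were compared. Embryos treated with LY-364947, an inhibitor of TGF-β receptor 1, stayed in 40 µM of the compound from 8 hours after fertilisation until collection at 48 hours. Untreated embryos of that age were the controls. Each of 3 treated replicates, of 10 to 15 embryos, was hybridised on its own 2-colour array against 1 pool made from 3 untreated replicates, with the dyes swapped on the array of replicate 2.

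Chaperones bind unfolded or partly folded proteins and release them for folding, transport or breakdown. In the cytosol, HSP70 and HSP90 proteins work with J-domain, BAG and STIP1 partners, and the chaperonin TRiC folds actin and tubulin inside a closed chamber. Some cytosolic genes are switched on by the heat shock factor Hsf1 when misfolded proteins build up, and others are expressed at all times. Chaperones of the endoplasmic reticulum (ER) fold secreted and membrane proteins and are controlled by the unfolded protein response, while mitochondria have their own HSP70, HSP60 and HSP10. In zebrafish, hsp90aa1.1 is also known for its expression in developing skeletal muscle, where it works with unc45b in myosin folding.

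Values are log ratios between the channels, read as log2, which is likely but not stated in the sources used here. The ratio of replicate 2 was multiplied by -1, so that all arrays run as replicates 1 and 3 do. Read by the order of names in the titles, positive means more RNA with LY-364947. Read as Cy5 against Cy3, positive means more RNA in untreated embryos. Neither reading could be settled, so genes are placed on the positive or negative side. Array medians as deposited lay between -0.0050 and -0.0029, so the arrays were nearly centred, and the number of arrays limits the precision. Because the same pool is in every ratio, the SD over arrays (n = 3 throughout) leaves out the spread of untreated embryos.

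Of 30 ER chaperone genes, 9 passed the test, all on the positive side. Heat-inducible cytosolic chaperones differed widely between the arrays and none passed. Passing favours genes with 1 sign on all arrays. Of the 30 ER genes, 14 had 1 sign, beside 52.3% of all genes. Tested with limma, 22 of the 110 genes had an adjusted p under 0.05, of which 18 were positive and 4 negative. That is 16.4% and 3.64% of the chaperone genes, against 9.95% (positive) and 9.44% (negative) of all genes tested. A single sign on all 3 arrays was found for 53 of the 110, beside 52.3% of all genes. For either side together, 19.4% of all genes passed. The median of the 110 mean ratios was -0.0024, near that of all genes at -0.0013. Without replicate 2 the counts were 4 positive and 2 negative, and without replicate 3 they were 19 and 13. The shares of all genes in those fits are not given here, so these counts have no background beside them.

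Of 30 ER genes, 9 were positive and passed, and 0 were negative and passed, with a median ratio of 0.04. At an unadjusted p of 0.05 the counts were 12 and 0, where 16% of all genes were positive and 16.5% negative. The genes that passed were the ER forms of HSP90 and HSP70, with co-chaperones, oxidoreductases and lectin chaperones. The plot of ER and cytosolic members by array shows these values, with the genes that passed marked.

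The ER HSP90 gene hsp90b1 (Grp94) had log2 ratios of 0.27, 0.74 and 1.07 on the arrays of replicates 1, 2 and 3. All were above 0 but spread over a wide range, and their mean was 0.69 ± 0.40, a 1.62-fold difference (adjusted p = 0.0137). The ER HSP70 gene hspa5 (BiP) had 0.25, 0.59 and 0.57. Its mean was 0.47 ± 0.19 (adjusted p = 0.00761), with replicate 1 the lowest again.

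The ER J-domain genes that passed lay on the same side. The luminal co-chaperone gene dnajb11 had 0.31, 0.38 and 0.57, with a mean of 0.42 ± 0.14 (adjusted p = 0.00586). The gene dnajc3a, whose product binds unfolded proteins in the lumen, had 0.41, 0.69 and 0.25, with a mean of 0.45 ± 0.22 (adjusted p = 0.0122). For these genes replicate 1 was the lowest for dnajb11 and replicate 3 for dnajc3a. The J-domain gene dnajc18 averaged 0.32 ± 0.08 (adjusted p = 0.00882), while the paralog dnajc3b, at 0.03 ± 0.20, and the stress-responsive genes dnajb9a (-0.02 ± 0.26) and dnajb9b (-0.01 ± 0.18) did not pass. The remaining ER J-domain genes did not pass either, with means from -0.11 (dnajb12b) to 0.11 (dnajb12a), dnajc10 at -0.0041 among them.

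Among protein disulfide isomerases, which form and rearrange disulfide bonds, 2 of 7 passed, both as positive, beside 9.95% of all genes on that side. The gene pdia8 had 0.28, 0.44 and 0.47, with a mean of 0.40 ± 0.10 (adjusted p = 0.00507). The gene pdia6 had 0.21, 0.41 and 0.48, with a mean of 0.37 ± 0.14 (adjusted p = 0.00982). Others did not pass, among them pdia4 at 0.25 ± 0.30 and pdia3 at -0.16 ± 0.24, which lay on opposite sides. The gene pdia4 had -0.08 on replicate 1 and 0.33 and 0.51 on replicates 2 and 3, and it passed without replicate 1 at 0.417 (adjusted p = 0.0115).

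Lectin chaperones hold glycoproteins during folding. The calreticulin gene calr3b averaged 0.35 ± 0.16 (adjusted p = 0.0145) and the calnexin gene canx 0.21 ± 0.08 (adjusted p = 0.0381). Without replicate 1, canx was 0.167 and no longer passed (adjusted p = 0.160), and its only probe missed the threshold over all probes (adjusted p = 0.0730). The gene calr had 0.12, 0.19 and 0.59, above 0 on every array, but averaged 0.30 ± 0.25 and missed the threshold (adjusted p = 0.0679). Its 4 probes did not run alike, since 3 were higher on replicate 3 than on replicate 1 and 1 was lower by 0.541 log2 units. It passed with quantile normalisation at 0.285 (adjusted p = 0.0476) and without replicate 1 at 0.392 (adjusted p = 0.0407).

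The collagen chaperone genes serpinh1a and serpinh1b encode forms of HSP47, which binds procollagen in the ER and is heat-inducible in mammals. The gene serpinh1b had -1.14 on replicate 1, against 0.24 and 0.32 on replicates 2 and 3, so that 1 array stood apart. It averaged -0.19 ± 0.82 (adjusted p = 0.673), and without replicate 1 it was 0.283 and passed (adjusted p = 0.0364). The gene serpinh1a had 0.14, -0.06 and -0.36, the opposite order, with a mean of -0.09 ± 0.25.

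**Figure D1:**
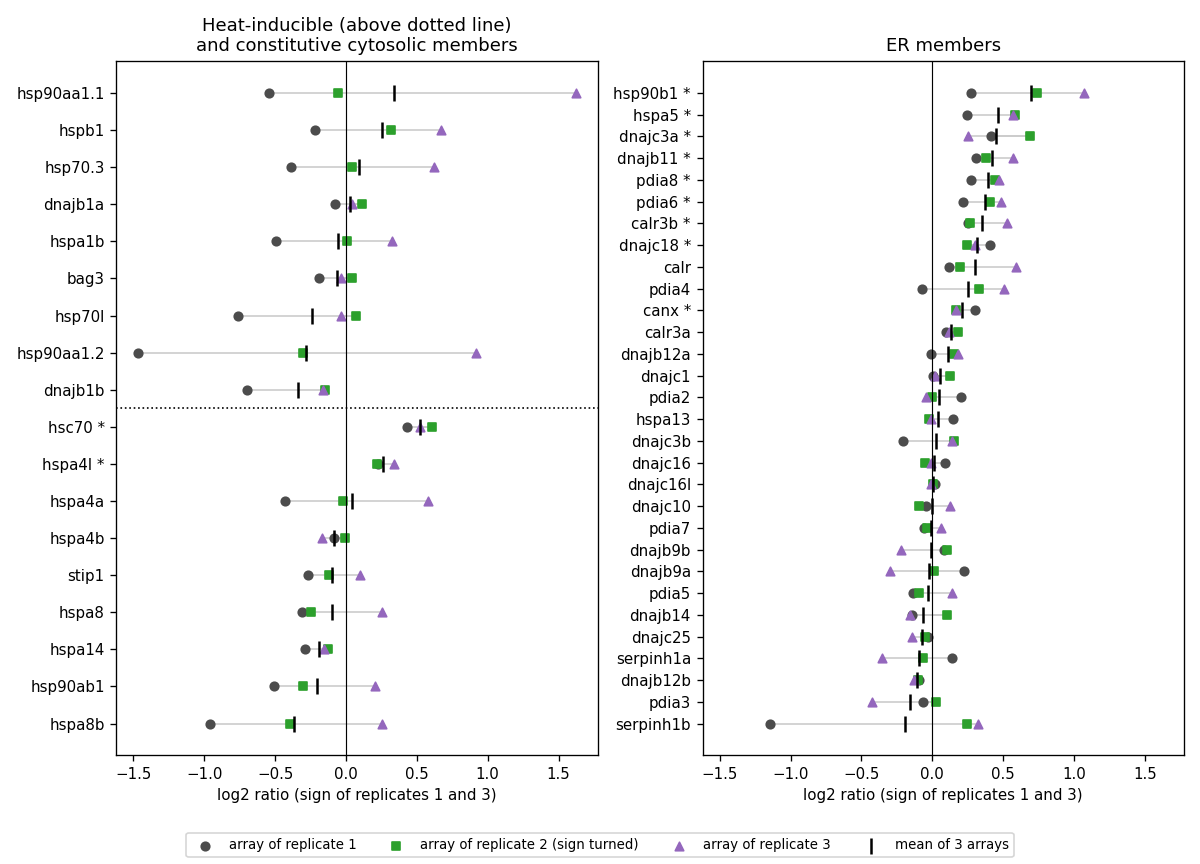
Log2 ratio (x axis, sign of replicates 1 and 3) of each heat-inducible and constitutive cytosolic chaperone gene (left) and each ER gene (right) on the arrays of 3 replicates, with the mean as a vertical bar. Asterisks mark genes with a limma adjusted p under 0.05: 0 of 9 heat-inducible, 2 of 9 constitutive and 9 of 30 ER genes. Replicate 1 is the lowest array for all 9 heat-inducible genes and for 5351 of all 15554 genes. The gene hspb11 was moved out of the heat-inducible class after values were seen.

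Without replicate 2, 0 ER genes passed by limma and 10 had an unadjusted p under 0.05, although the means stayed close, at 0.672 for hsp90b1 (adjusted p = 0.0953) and 0.407 for hspa5 (adjusted p = 0.0777). That fit had 1 residual degree of freedom. The share of all genes passing in it is not given here for either count, so neither can be set beside a background.

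No heat-inducible cytosolic gene passed (0 of 9 by limma, 1 at an unadjusted p of 0.05 and 0 by an ordinary statistic without shared variance). Of all genes, 19.4% passed by limma, and at an unadjusted p of 0.05 16% were positive and 16.5% negative. The median ratio of the heat-inducible genes was -0.49 on the array of replicate 1, 0.04 on replicate 2 and 0.33 on replicate 3. The median of all genes stayed between -0.0076 and 0.0028. All 9 had their lowest value on replicate 1, where all were below 0. Of all 15554 genes, 5351 were lowest on replicate 1 and 7844 were below 0 there. After values were seen, hspb11 was moved out of the heat-inducible class and hspb9l to the small heat shock class. The gene hspb11 had -0.14, -0.04 and -0.12 on replicates 1, 2 and 3, and hspb9l had 0.07, 0.14 and 0.65.

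The inducible HSP90 genes differed most. The gene hsp90aa1.2 had log2 ratios of -1.47, -0.30 and 0.92 on replicates 1, 2 and 3, so the arrays of replicates 1 and 3 lay 2.38 log2 units apart on opposite sides of 0. Its mean was -0.28 ± 1.19 (adjusted p = 0.665). The muscle-expressed gene hsp90aa1.1 had -0.54, -0.05 and 1.62, with a mean of 0.34 ± 1.13 (adjusted p = 0.577). Both kept the order of the arrays, and hsp90aa1.1 lay above hsp90aa1.2 by 0.92, 0.25 and 0.70 on replicates 1, 2 and 3. They are neighbouring genes in GRCz12tu and close paralogs, and how far their probes share signal was not tested. Without replicate 3, hsp90aa1.1 turned to -0.298 (adjusted p = 0.0468) and hsp90aa1.2 passed at -0.883 (adjusted p = 0.00580).

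The inducible HSP70 genes showed smaller spreads of the same kind. The gene hsp70.3 had -0.39, 0.05 and 0.62, with a mean of 0.09 ± 0.51, and hspa1b had -0.49, 0.00 and 0.33, with a mean of -0.05 ± 0.41. In both, replicate 2 lay near 0 between the others. The gene hsp70l, the usual heat shock reporter gene in zebrafish, had -0.76, 0.07 and -0.04, so that only replicate 1 was far from 0 (mean -0.24 ± 0.45, adjusted p = 0.326).

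Of the remaining inducible genes, hspb1 (Hsp27), a small heat shock protein gene, had -0.22, 0.31 and 0.67, with a mean of 0.25 ± 0.45, and it passed without replicate 1 at 0.492 (adjusted p = 0.0146). The gene dnajb1b, which encodes the HSP40 partner of inducible HSP70, had -0.70, -0.15 and -0.16, all below 0 (mean -0.34 ± 0.31, adjusted p = 0.0793). Without replicate 3 it passed at -0.424 (adjusted p = 0.0129). Its paralog dnajb1a and the HSP70 co-chaperone gene bag3 stayed near 0, with SDs of 0.10 and 0.12.

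Constitutive cytosolic genes differed in their spread over the arrays. Of 9, hsc70 and hspa4l passed as positive (22.2%) and 0 passed as negative by limma, beside 9.95% and 9.44% of all genes. At an unadjusted p of 0.05 the counts were 2 and 1 (hspa14), beside 16% and 16.5% of all genes. The gene hsc70, a constitutive HSP70 gene, had 0.43, 0.61 and 0.52, which lay close together, with a mean of 0.52 ± 0.09, a 1.43-fold difference (adjusted p = 0.00159). The gene hspa4l, an HSP110 nucleotide exchange factor for HSP70, had a mean of 0.26 ± 0.07 (adjusted p = 0.0166).

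Values rose from replicate 1 through 2 to 3 in 5 of the 9 constitutive genes and in 5 of the 9 heat-inducible ones. The same order was found in 3344 of all 15554 genes. The gene hspa8b had -0.96, -0.39 and 0.26, with a mean of -0.37 ± 0.61, and hspa8, the common constitutive HSP70 gene, had -0.31, -0.25 and 0.26, with a mean of -0.10 ± 0.31. The constitutive HSP90 gene hsp90ab1 had -0.51, -0.31 and 0.21, with a mean of -0.20 ± 0.37 (adjusted p = 0.326). In these genes replicates 1 and 2 were below 0 and replicate 3 above it. The HSP110 gene hspa4a had -0.43, -0.02 and 0.58 (mean 0.04 ± 0.51), while its paralog hspa4b averaged -0.09 ± 0.08 with no such spread. The gene stip1, whose product links HSP70 to HSP90, had -0.27, -0.12 and 0.10. Without replicate 3, 6 of the 9 constitutive and 3 of the 9 inducible genes passed. Among them were hspa8b at -0.678 (adjusted p = 0.000912) and hsp90ab1 at -0.408 (adjusted p = 0.00152). The share of all genes that passed in that fit is not given here, so these counts have no background beside them.

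**Figure D2:**
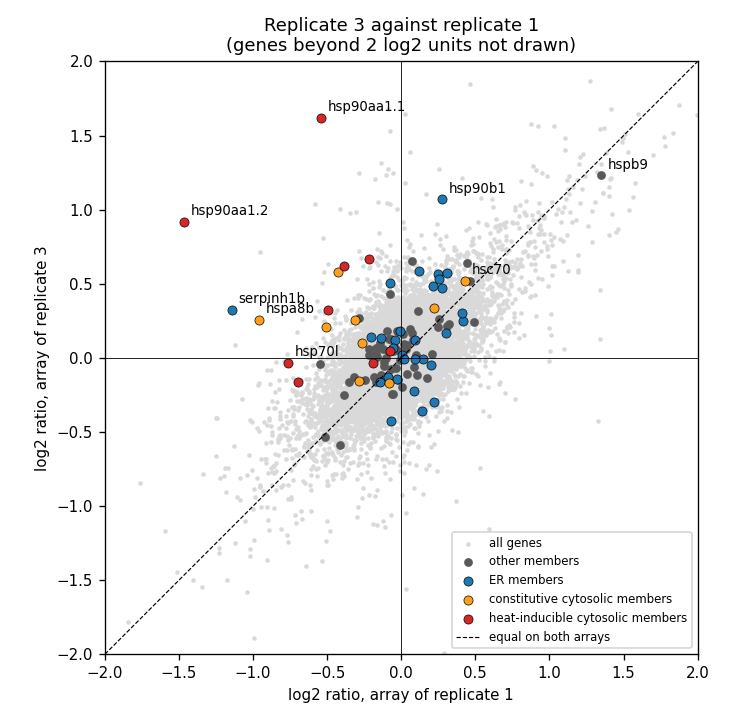
Log2 ratio on the array of replicate 3 (y axis) against that of replicate 1 (x axis) for all genes (grey) and the chaperone genes by class. Heat-inducible and most constitutive cytosolic genes lie above the dashed line of equal values, in 17 of 18 cases, and hsp90aa1.1 and hsp90aa1.2 lie farthest from it. Of all 15554 genes, 7519 lie above that line.

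The difference between the arrays was set beside that of all genes. A mark of 0.3 for the SD over arrays was chosen after the values were seen. It was reached by 2.32% of all genes, and by 15 of the 110 chaperone genes (13.6%). These were 7 of 9 heat-inducible (77.8%), 4 of 9 constitutive cytosolic (44.4%), 2 of 7 small heat shock (28.6%) and 2 of 30 ER genes (6.67%). Those ER genes were hsp90b1 and serpinh1b. The gene hspb11, moved out of the heat-inducible class after values were seen, had an SD of 0.05. The gene hspb9l, moved to the small heat shock class after values were seen, had an SD of 0.32. In the other protein folding lists described below, 7 of 123 genes reached the mark (5.69%).

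Replicate 3 exceeded replicate 1 by 0.5 log2 units or more in 1.81% of all genes and in 18 chaperone genes (16.4%). The reverse gap was found in 1.32% of all genes and in 1 chaperone gene, dnajb9a. Ranked by that gap among 15554 genes, hsp90aa1.2 was number 6, hsp90aa1.1 number 8, serpinh1b number 15, hspa8b number 27, hsp70.3 number 38 and hspa4a number 39. The 100 genes with the largest gap held 11 chaperone genes, and the 100 with the largest reverse gap held 0. The plot of mean ratio against spread shows that 13 of the 15 genes of wide spread did not pass, and that hsp90b1 and hspb9 did. The test divides the mean by an error that grows with this SD, so a wide spread by itself works against passing.

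The 11 cell cycle markers were also higher on replicate 3 than on replicate 1 in 11 of 11 cases, beside 7519 of all 15554 genes. Their median gap was 0.26, and their part in the chaperone gap was not tested. The arrays of replicates 1 and 3 carry the same dye orientation and the same pool. Differences of the embryos, their handling, RNA, labelling or hybridisation cannot be told apart. Across genes, as a description over points that share 3 arrays, replicates 1 and 3 correlated at r = 0.64 for all genes. That r was 0.55 for the 92 chaperone genes outside the inducible and constitutive cytosolic classes and -0.20 for the 18 genes of those classes. The 18 genes had r = 0.74 between replicates 1 and 2 and 0.09 between replicates 2 and 3, beside 0.82 and 0.74 for all genes. For the 30 ER genes, r was 0.31 between replicates 1 and 2, 0.18 between replicates 1 and 3 and 0.78 between replicates 2 and 3. They include serpinh1b, far below the other ER genes on replicate 1 at -1.14 (next lowest -0.20, dnajc3b), and r without it was not computed.

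**Figure D3:**
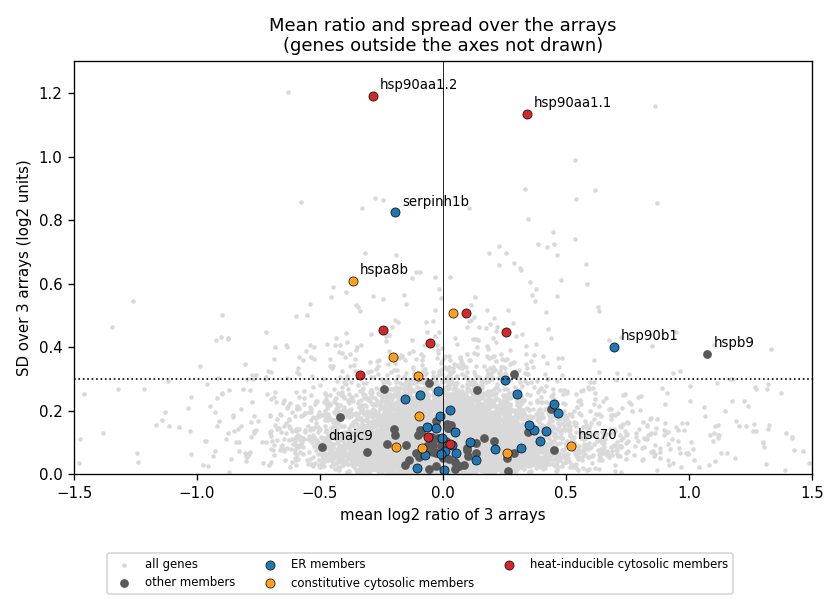
SD over the 3 arrays (y axis, log2 units) against the mean log2 ratio (x axis) for all genes (grey) and the chaperone genes by class, with a dotted line at an SD of 0.3. Of the chaperone genes 15 reach the line, with hsp90aa1.2 (1.19) and hsp90aa1.1 (1.13) the highest, and hsc70 lies far below it at 0.09.

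Separate probes were compared for genes with a wide gap between replicates 3 and 1. Of 14 chaperone genes with more than 1 probe and a gap of over 0.3 between replicates 3 and 1, 13 had the gap above 0 on every probe, and the exception was calr. The genes were picked by the mean gap of these same probes, so a shared sign partly follows from that choice. The share over all genes picked in this way was not computed. The 2 probes of hsp90aa1.2 had gaps of 2.51 and 2.25 log2 units, those of hsp90aa1.1 had 1.84 and 2.48, and those of serpinh1b had 1.65 and 1.29. The place of replicate 2 differed between probes: for serpinh1b it was 0.17 on 1 probe, below replicate 3 at 0.50, and 0.31 on the other, above replicate 3 at 0.14. The 3 hspa8b probes ran from 1.11 to 1.42. The 4 hsp90ab1 probes ran from 0.276 to 1.12, and 1 of them passed on its own on the negative side (-0.335, adjusted p over all probes = 0.0379). At the probe level, 25 of 179 probes of chaperone genes passed as positive (14.0%) and 5 as negative (2.79%). Of all 43603 probes tested, those without a symbol included, 5.46% passed as positive and 4.91% as negative. No gene that had a probe past the threshold had probes on both sides. Among genes with no such probe, some did. The probes of hspb8 ran from -0.157 to 0.160 and those of dnajb2 were at -0.228 and 0.145, both chosen after their values were seen.

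Probes agreed less in which of them passed. Of 8 chaperone genes with more than 1 probe that passed, 3 passed on every probe: hsp90b1, hspa5 and pdia8. The genes pdia6 and calr3b each had 1 probe that did not pass, at 0.362 (adjusted p = 0.0913) and 0.319 (adjusted p = 0.0548). Of the dnajb11 probes, the lowest (0.238) did not pass.

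**Figure D4:**
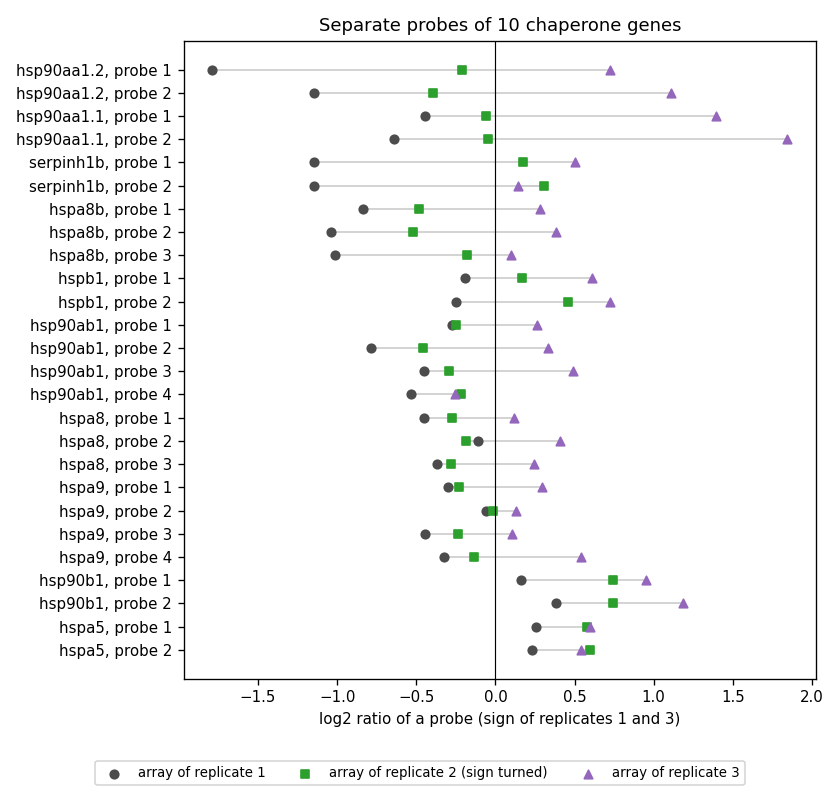
Log2 ratio (x axis) of each separate probe of 10 chaperone genes on the arrays of the 3 replicates. For hsp90aa1.2, hsp90aa1.1, serpinh1b, hspa8b, hspb1, hsp90ab1, hspa8 and hspa9, every probe is higher on replicate 3 than on replicate 1, while every probe of hsp90b1 and hspa5 is above 0 on all arrays.

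The small heat shock proteins, which hold unfolded proteins until HSP70 can act, had the largest single mean ratio. The gene hspb9 had 1.35, 0.64 and 1.23, with a mean of 1.07 ± 0.38, a 2.11-fold difference (adjusted p = 0.00223), and the array of replicate 2 was the lowest. The genes hspb3, known from skeletal muscle, and hspb7, known from heart muscle, averaged 0.45 ± 0.08 (adjusted p = 0.00228) and 0.27 ± 0.01 (adjusted p = 0.0113). Of the 7 genes in this class, 3 passed as positive (42.9%, beside 9.95% of all genes) and 0 as negative. At an unadjusted p of 0.05, 4 were positive and 0 negative, beside 16% and 16.5% of all genes. The class leaves out hspb11 and also hspb1, which was counted as heat-inducible and did not pass. It holds hspb9l, which was moved there after values were seen. The means of hspb6, hspb8 and hspb15 stayed within -0.09 and 0.01. Those of hspb6 and hspb8 average probes on opposite sides, from -0.114 to 0.132 and from -0.157 to 0.160. Of 14 skeletal muscle marker genes, 8 passed as positive (57.1%) and 1, desma, as negative (7.14%), with a median of 0.22. Of all genes, 9.95% and 9.44% did so. The part of the markers in the muscle-linked ratios was not tested. In such whole-embryo RNA, fewer cells of a type and less RNA per cell cannot be told apart. The median difference between replicates 3 and 1 was -0.06 over the muscle markers, with 0 of 14 at 0.5 or more, and their part in the gap of hsp90aa1.1 was not tested.

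Mitochondrial chaperones had a median ratio of -0.04. At an unadjusted p of 0.05, 0 of 12 were positive and 3 negative, beside 16% and 16.5% of all genes. By adjusted p 1 passed (8.33%, beside 9.44% of all genes on the negative side). It was dnaja3b, a mitochondrial J-domain protein gene, with -0.52, -0.21 and -0.53 (mean -0.42 ± 0.18, adjusted p = 0.00998), while its paralog dnaja3a had -0.01 ± 0.09. The mitochondrial HSP70 gene hspa9 had -0.28, -0.15 and 0.27 (mean -0.06 ± 0.29). The HSP60 gene hspd1 had -0.55, -0.13 and -0.04 (mean -0.24 ± 0.27) and its HSP10 partner hspe1 -0.22, 0.11 and 0.02, again lowest on replicate 1. The gene dnajc19, of the mitochondrial import motor, averaged -0.20 ± 0.12 (adjusted p = 0.0742) and passed without replicate 1 at -0.265 (adjusted p = 0.0430). Without replicate 3, hspa9 passed at -0.219 (adjusted p = 0.0317) and hspd1 at -0.340 (adjusted p = 0.0168).

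The TRiC subunits had means on both sides of 0. Of 7 measured, only cct6a passed, on the negative side, with -0.39, -0.29 and -0.25 (mean -0.31 ± 0.07, adjusted p = 0.00893). That is 14.3%, beside 9.44% of all genes. The means of cct8 (-0.15 ± 0.03), cct7 (-0.14 ± 0.05), cct3 (-0.05 ± 0.10), cct5 (-0.05 ± 0.12), cct4 (0.03 ± 0.16) and tcp1 (0.03 ± 0.05) did not pass. Although the subunits form 1 complex, their means spanned -0.31 to 0.03. All 7 were below 0 on replicate 1 and lower there than on replicate 3, with a median gap of 0.14. Among all 15554 genes, 7844 were below 0 on replicate 1 and 7519 were higher on replicate 3 than on replicate 1.

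Of 23 other J-domain genes, 5 passed, of which 3 were positive (13.0%) and 2 negative (8.70%). Those shares were near the 9.95% and 9.44% of all genes. The largest negative ratio of all chaperone genes was that of dnajc9, whose human product is a histone chaperone, with -0.42, -0.48 and -0.59 (mean -0.49 ± 0.09, adjusted p = 0.00187). All 11 measured cell cycle marker genes also passed on the negative side, with a median of -0.44, and their part in the dnajc9 ratio was not tested. The splicing-associated gene dnajc17 averaged -0.23 ± 0.10 (adjusted p = 0.0342), and without replicate 1 it was -0.184 (adjusted p = 0.141). On the positive side, dnajc5aa, which encodes the cysteine string protein of synaptic vesicles, had 0.44, 0.23 and 0.64 (mean 0.44 ± 0.20, adjusted p = 0.0109). Of 9 neuron markers 7 passed on that side, with a median of 0.54, and their part was likewise not tested. The HSP90 and HSP70 adaptor gene dnajc7 averaged 0.35 ± 0.13 (adjusted p = 0.0113), and dnaja2b 0.26 ± 0.05 (adjusted p = 0.0145), which without replicate 1 was 0.231 (adjusted p = 0.0646). Of 6 BAG genes outside bag3, 0 passed by limma and 0 had an unadjusted p under 0.05, with means from -0.10 to 0.10. Of all genes, 19.4% passed, and at the unadjusted p 16% were positive and 16.5% negative.

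Other genes of protein folding were read from lists that share no gene symbol with the chaperone genes above. The lists are separate by symbol and not by family. Some of their genes, such as hyou1, hsph1, cryaba, cryabb and trap1, belong to the families named at the start under symbols that the rule did not take. Over these lists, 16 of 123 measured genes passed as positive and 7 as negative, with a median of 0.02. That is 13.0% and 5.69%, beside 9.95% and 9.44% of all genes. The medians by array are drawn in the plot of class and list medians.

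Regulators of the heat shock response and HSP90 partners included 3 positive and 1 negative gene of 25. That is 12% and 4%, beside 9.95% and 9.44% of all genes. The FK506-binding cochaperone gene fkbp5, a known glucocorticoid target, had 1.186, 0.979 and 1.199 (mean 1.12 ± 0.12, adjusted p = 0.000129). The heat shock factor gene hsf4, known for its role in the lens, averaged 0.58 ± 0.06 (adjusted p = 0.000850). Of 8 lens markers, 6 passed on the positive side (75%, beside 9.95% of all genes), and their part was not tested. The gene hsbp1a, encoding a heat shock factor binding protein, averaged 0.45 ± 0.05, and the HSP90 cochaperone gene sugt1 -0.32 ± 0.14 (adjusted p = 0.0172). The main heat shock factor gene hsf1 had 0.08, -0.01 and -0.06, close to 0 on every array. The cochaperone gene fkbp4 had -0.88, -0.36 and -0.08, and ptges3a (p23) -0.17, 0.05 and 0.42. These and hsf1 were chosen after their values were seen. The list as a whole had a median gap of 0.07 between replicates 3 and 1, against 0.82 for the heat-inducible genes.

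Genes of the unfolded protein response lay on both sides, with 4 positive and 4 negative. That is 12.5% each, not far from the 9.95% and 9.44% of all genes. Of 32, the positive ones were sdf2l1, a partner of BiP, at 0.54 ± 0.09 (adjusted p = 0.00148), with hyou1, an ER HSP110, at 0.23 ± 0.07, creld2 at 0.22 ± 0.07 and selenos at 0.18 ± 0.0049. The negative ones were regulators and genes of the Atf4 branch. The transcription factor gene atf4a had -0.40, -0.37 and -0.78 (mean -0.52 ± 0.23, adjusted p = 0.00807), and its target ddit3 (Chop) had -0.97, -0.28 and -0.81 (mean -0.69 ± 0.36, adjusted p = 0.0105). The glutathione-degrading enzyme gene chac1 averaged -0.63 ± 0.40 and xbp1, the transcription factor gene of the Ire1 branch, -0.25 ± 0.03 (adjusted p = 0.0162). Of these, hyou1, creld2, selenos and chac1 were chosen after their values were seen. The other 24, among them the sensor genes eif2ak3 (-0.01) and ern1 (-0.03), also chosen after their values were seen, did not pass.

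Further ER folding enzymes had 6 positive (19.4%) and 0 negative genes of 31, beside 9.95% and 9.44% of all genes. At an unadjusted p of 0.05 the counts were 9 and 2, beside 16% and 16.5% of all genes. The thioredoxin-like gene tmx3a had 0.45, 0.54 and 0.51 (mean 0.50 ± 0.05, adjusted p = 0.00126). The prolyl isomerase genes fkbp9 and fkbp10b averaged 0.37 ± 0.11 and 0.23 ± 0.01, and txndc12 0.30 ± 0.12. The others were crtap (0.22) and plod1a (0.20), which serve collagen modification and were chosen after their values were seen. All 5 measured notochord and cartilage matrix markers passed on the positive side too, with a median of 0.65, and their part in these ratios was not tested.

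In the prefoldin list, which holds partners that deliver proteins to TRiC, vbp1 passed on the positive side (0.36 ± 0.07) and pfdn4 on the negative side (-0.21 ± 0.06). Each was 1 of 11 genes (9.09%), near the 9.95% and 9.44% of all genes. In the mitochondrial list, grpel2, a nucleotide exchange factor for mitochondrial HSP70, averaged 0.44 ± 0.15 (adjusted p = 0.00576) and the protease gene lonp1 -0.26 ± 0.16 (adjusted p = 0.0449). Each was the only gene of 14 to pass on its side (7.14%), under the shares of all genes. Among 10 myosin chaperone and related muscle genes, smyd2b passed (0.24 ± 0.07), a share of 10% beside 9.95% of all genes on the positive side. The gene unc45b, the myosin chaperone gene that acts with hsp90aa1.1 and was chosen after its values were seen, had -0.17, -0.11 and 0.38, a gap of 0.545, and its mean of 0.03 ± 0.30 did not pass.

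**Figure D5:**
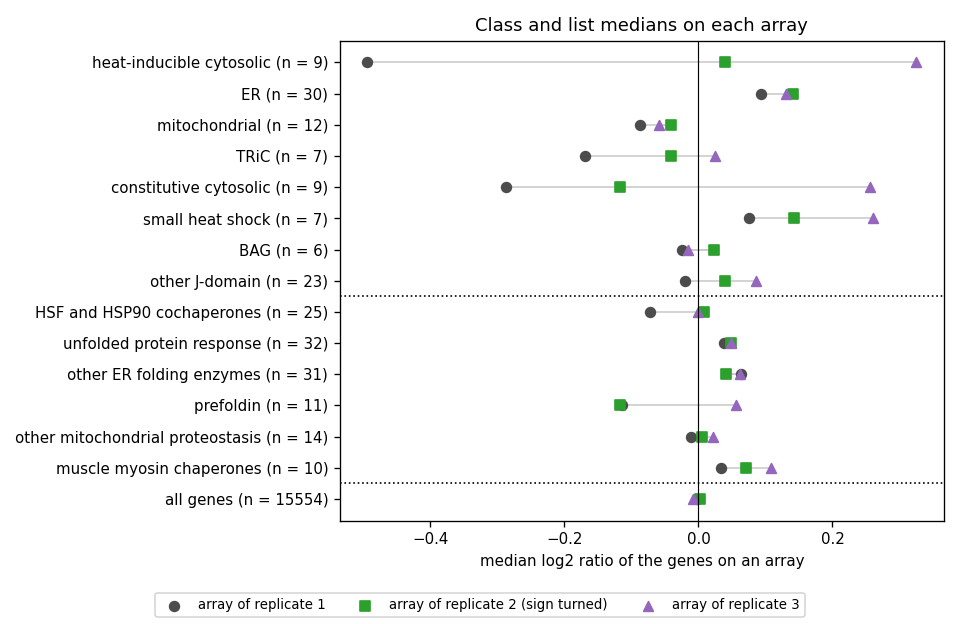
Median log2 ratio (x axis) of each class of chaperone genes, of the other protein folding lists and of all genes on each of the 3 arrays. The heat-inducible class runs from -0.49 on replicate 1 to 0.33 on replicate 3 and the constitutive class from -0.29 to 0.26. The median of the unfolded protein response list stays between 0.04 and 0.05. Its single genes were less steady, since 4 of 32 had an SD of at least 0.3 (12.5%, beside 2.32% of all genes).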

How the data were processed

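Log ratios of whole-embryo RNA from 3 two-colour Agilent arrays were used as deposited. Partek is named per the submitters' processing notes, and no source used here gives the background correction, normalisation or centring. The deposited values were read as log2. After 45 control probes were left out, the 23717 probes with 1 symbol were averaged per gene and array, and 19886 probes without a symbol were not used for genes. The sign of replicate 2, the dye swap, was turned, since its values correlated at -0.74 and -0.65 with the others, which correlated at 0.52. The mean ratio of 15554 genes was tested against 0 with limma 3.58.1 (2 residual degrees of freedom, Benjamini-Hochberg threshold 0.05), and the script was tested on simulated data. The untreated pool counts as 1 control sample.

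The members, role classes and lists were chosen with earlier results of these data known. After values were seen, hspb11 was moved out of the heat-inducible class and hspb9l was moved to the small heat shock class. Genes named are the 12 members of largest mean ratio per side among those past the threshold with 1 sign, a fixed list of main chaperones, the 6 of largest SD and up to 4 of smallest adjusted p per list. Other members, named to account for their class, and desma were chosen after their values were seen. Marker lists of exocrine pancreas (10 genes measured) and hatching gland (3 measured) each had 1 positive and 1 negative gene past the threshold.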

Additional observations from a re-analysis of the deposited data

How the results depend on the processing

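Over the chaperone genes, the positive count of 18 became 11 with a dye term, 8 at an adjusted p of 0.01, 3 against a change of 0.2 (treat) and 0 with an ordinary statistic (17 at an unadjusted p of 0.05) or with replicate 2 as deposited. It ran from 4 to 20 when 1 replicate was left out. The negative count of 4 became 2, 1 (treat), 0 (ordinary, 6 unadjusted), 0 (replicate 2 as deposited) and 7 with the probe of smallest SD, and ran from 2 to 13. Heat-inducible genes that passed ran from 0 to 3 without 1 replicate. The constitutive count of 2 became 1 with a dye term, 1 at 0.01, 1 by treat, 0 by the ordinary statistic and 4 with the probe of smallest SD, and ran from 1 to 6. The ER count of 9 became 5 at 0.01, 0 by treat and 0 by the ordinary statistic (6 unadjusted), and ran from 0 to 11. For the other folding lists, the 16 positive genes became 8 (dye term), 8 (0.01), 5 (treat) and 0 (ordinary), and ran from 7 to 18. Their 7 negative genes became 2, 1, 0 and 0, and 11 with the probe of smallest SD, and ran from 2 to 12. Members with a wide SD numbered 26 at a mark of 0.2 and 6 at 0.5, both chosen after seeing the data. With 1 replicate left out, hsp90aa1.1 ran from -0.298 (without replicate 3) to 0.784, and serpinh1b from -0.451 to 0.283 (without replicate 1). Array scaling, centring, quantile normalisation, a trended prior and the median of probes left all 34 named genes that had passed past the threshold. The ordinary statistic and 0.01 threshold use the same values, so only the variance or the cut-off differs. For other settings the cause was not tested. The shares of all genes that passed under each setting are not given here. No paired analysis was possible because only 1 group of arrays was made. No channel intensities were used, which leaves the height of each probe above background unmeasured, and 3 ratios to 1 pool leave out the spread of untreated embryos.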
